A study of Rattus norvegicus with 16 samples.

Results

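The genes described here encode receptors with which myeloid cells sense formylated peptides, complement fragments and tissue damage: Fpr1, C3ar1, C5ar1, C5ar2, Trem1 and Trem2, together with Tyrobp, the adaptor of the TREM receptors. They were chosen by symbol, through the RefSeq transcript that the array design gives for each probe, and all 7 genes were found among 16678 genes with a named probe. Their mRNA was measured in whole lung and in adipose tissue of male Brown Norway rats, aged 7 weeks at the start of the model. The 5 HDM rats were made allergic to house dust mite (HDM) in 2 phases of 3 weeks each. Weekly injections under the skin (45 µg HDM, mixed with Al(OH)3) came first, and nasal doses of 120 µg, given on 3 occasions a week, came second. For the 3 control rats saline took the place of HDM in both phases, so that both groups had the Al(OH)3 adjuvant. Lung and adipose tissue came from the same 8 rats, with 1 one-colour array per rat and tissue.

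FPR1 binds N-formylated peptides that bacteria and mitochondria release, and draws neutrophils toward them. C3AR1 and C5AR1 bind the anaphylatoxins C3a and C5a, which are cut from complement proteins, and signal through G proteins. C5AR2 also binds C5a but does not couple to G proteins in the usual way. TREM1 amplifies inflammatory signals on neutrophils and monocytes, while TREM2 senses lipids and apolipoproteins on tissue macrophages. Neither TREM signals by itself. Both rely on TYROBP (DAP12), whose cytoplasmic ITAM motif recruits the kinase SYK.

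In the lung, C5ar1, Trem1 and Tyrobp were higher in every HDM rat than in every control rat, each by about the same factor (1.54-fold, 1.61-fold and 1.55-fold), and Fpr1 was lower in every HDM rat (1.58-fold). C3ar1 had a difference of like size with overlapping groups, and C5ar2 and Trem2 differed by less than their spread. None of these differences passed the test across the whole array: 0 of 7 genes were differentially expressed (limma, Benjamini-Hochberg adjusted p below 0.05 and a fold change above 1.5), where 0.855% of all 45598 probes were. At an unadjusted p below 0.05, 5 of 7 genes passed with the same fold change, against 4.3% of all probes. Adjusting only over the probes past 1.5-fold called 4 genes (Fpr1, C5ar1, Trem1 and Tyrobp), against 2.91% of all probes. Those probes were picked by the same difference that was then tested. This adjustment is therefore more lenient than that over all probes, and its control of false calls is not assured. Groups that did not overlap were found for 3 of 7 genes upward, against 4.65% of probes, and for 1 of 7 downward, against 4.97%. The same 4 genes were separated after median scaling and after quantile normalization, with or without another background correction (normexp). They were also separated on the scale of Gapdh and Hprt1 and on that of probes well above background. The authors' own log2 table separated them too, but its values closely match those used here. In adipose tissue 0 of 7 genes were called, as were 0% of the probes. By their brightest probes 0 of 7 had an unadjusted p below 0.05, where 4515 of 45598 probes did. No gene separated the groups there, where 1.54% of probes did so upward and 4.72% downward.

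The level of a gene is given throughout as log2 signal relative to the 75th percentile of all probes on its array, so that 0 is the signal of that percentile and 1 unit is a doubling. Levels of different genes were not compared, because probes differ in brightness. In whole tissue, more cells of a type and more RNA per cell cannot be told apart. The p-values rest on 8 rats, and the smallest two-sided p of the exact permutation test over the 56 possible splits was 0.0179. The 75th percentile signal was 376 to 488 on the lung arrays and 111 to 240 on the adipose arrays, and 62.2 to 68.9% and 50.8 to 60.3% of probes were well above background. Each tissue had a slide of its own, with HDM rats 1 to 4 in its first row and HDM rat 5 and the 3 control rats in its second row. Lung markers such as Sftpc and Ager and adipocyte markers such as Adipoq and Fabp4 were well above background on all 8 arrays of the matching tissue. Ager, Adipoq and Fabp4 were so on all 8 arrays of the other tissue as well, at lower levels. The mean log2 signal of Ager was 8.25 in lung and 0.47 in adipose tissue. That of Adipoq was 8.88 in adipose tissue and -0.08 in lung, and that of Fabp4 was 8.66 and 0.88. On 2 adipose arrays, those of HDM rat 1 and control rat 1, genes of the epididymis and testis reached a summed signal of 2685 and 4114 times the 75th percentile, against 0.181 to 28.6 on the other 6. The adipose array of HDM rat 2 had 1224 outlier spots, against 355 to 444 on the others, and such spots were left out.

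**Figure D1:**
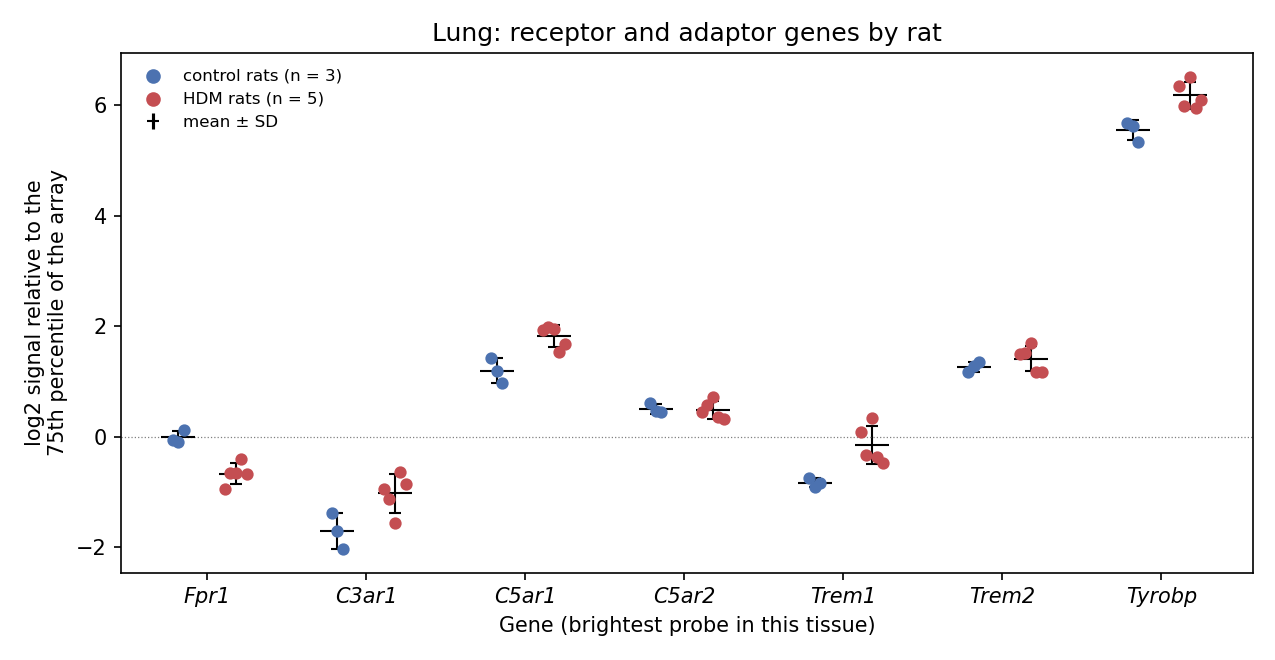
Level of each gene in the lung (y axis, log2 signal relative to the 75th percentile of the array) in 3 control rats (blue) and 5 HDM rats (red). Points are rats and black bars are mean ± SD. The HDM points of C5ar1, Trem1 and Tyrobp lie above all control points and those of Fpr1 lie below them.

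Fpr1, the formyl peptide receptor, was the only one of the 7 genes whose level was lower in the lungs of all HDM rats. Its log2 signal was -0.96, -0.65, -0.67, -0.41 and -0.67 in HDM rats 1 to 5 and -0.06, -0.10 and 0.12 in control rats 1 to 3. The groups were thus separated by a gap, with the highest HDM rat below the lowest control rat. HDM rats differed from control rats by a log2 fold change of -0.66 (SE 0.14), with an adjusted p of 0.0877 in limma and an exact permutation p of 0.0179. This was the smallest adjusted p among the 7 genes in the lung. It passed the threshold when probes near background were left out before the test (adjusted p = 0.0262) and when arrays were weighted by their quality (adjusted p = 0.0371). No other formyl peptide receptor gene of the rat had a named probe on this array, so Fpr1 stands alone for its family.

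The stretch before the start of Fpr1 is shown because its level in the lung ran opposite to that of 4 other genes here, and that of C3ar1 is set beside it as one of those. Both are the 250 bases upstream of the start in RefSeq on GRCr8, at chr1:67422521-67422770 for Fpr1 and at chr4:157756531-157756780 for C3ar1, both on the minus strand. Capitals mark the letters GAGGAA, a core of PU.1 binding sites in myeloid genes, and TGANTCA, the letters of an AP-1 site, searched on both strands.
Fpr1: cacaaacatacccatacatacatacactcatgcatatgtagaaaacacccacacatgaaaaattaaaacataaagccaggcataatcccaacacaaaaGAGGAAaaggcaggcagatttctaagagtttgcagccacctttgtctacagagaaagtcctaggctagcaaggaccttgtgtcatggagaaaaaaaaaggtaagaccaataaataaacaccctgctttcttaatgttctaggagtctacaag
C3ar1: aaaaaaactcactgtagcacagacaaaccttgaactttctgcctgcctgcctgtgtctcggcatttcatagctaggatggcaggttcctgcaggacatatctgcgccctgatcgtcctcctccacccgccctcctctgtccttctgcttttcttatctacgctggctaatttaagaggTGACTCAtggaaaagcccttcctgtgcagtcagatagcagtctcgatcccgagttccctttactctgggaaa
The GAGGAA letters began 152 bases before the start of Fpr1, and the TGANTCA letters began 72 bases before that of C3ar1. Promoters of 5 of the 7 genes were in the table used. GAGGAA stood in 3 of these (Fpr1, C5ar2 and Trem2), against 23.3% of 33469 rat promoters of this length, and TGANTCA in 2 (C3ar1 and C5ar2), against 6.34%. The matches did not follow the direction of the lung values: Fpr1, C5ar2 and Trem2 share the first motif and had log2 fold changes of -0.66, -0.02 and 0.15.

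C3ar1, the receptor of C3a, was measured by 2 probes, and both gave higher mean levels in the lungs of HDM rats. With its brighter probe the log2 signal was -0.94, -1.14, -1.56, -0.65 and -0.87 in HDM rats 1 to 5, and -1.38, -1.70 and -2.04 in control rats 1 to 3. HDM rat 3 lay among the control rats, so the groups overlapped. Its log2 fold change was 0.67 (SE 0.23, adjusted p = 0.337, exact permutation p = 0.0536). The dimmer probe separated the groups, at -2.42, -2.60, -2.79, -2.51 and -2.69 against -2.86, -3.17 and -3.47, with a log2 fold change of 0.56 (SE 0.16, adjusted p = 0.212).

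C5ar1 and C5ar2, which encode both receptors of C5a and lie on chromosome 1 with 1 annotated locus between them, differed in pattern. The log2 signal of C5ar1 in the lung was 1.93, 1.98, 1.95, 1.53 and 1.68 in HDM rats 1 to 5 and 1.42, 1.18 and 0.97 in control rats 1 to 3. Every HDM rat lay above every control rat. C5ar1 thus had a log2 fold change of 0.63 (SE 0.16, adjusted p = 0.160, exact permutation p = 0.0179). C5ar2 was 0.45, 0.57, 0.72, 0.36 and 0.32 in the HDM rats and 0.61, 0.45 and 0.44 in the control rats. These values intermingled. C5ar2 had a log2 fold change of -0.02, and its 95% interval ran from -0.30 to 0.27 (adjusted p = 1.00). A dim probe of C5ar2, near -3.5 in both groups, gave a log2 fold change of 0.05 (95% interval -0.42 to 0.52). The difference between the fold changes of C5ar1 and C5ar2 was not tested.

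Trem1 and Trem2 lie in 1 cluster on chromosome 9, in which Trem3 is the direct neighbour of Trem1. The probes of Trem1 and Trem3, which gave the higher lung signals described next, are shown from 5′ to 3′ as the letters on the array, since each stands for its gene with 60 bases.
Trem1: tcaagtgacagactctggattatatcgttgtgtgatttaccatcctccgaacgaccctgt
Trem3: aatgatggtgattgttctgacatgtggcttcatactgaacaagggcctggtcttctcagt
The log2 signal of Trem1 in the lung was 0.08, -0.33, 0.33, -0.37 and -0.47 in HDM rats 1 to 5 and -0.75, -0.91 and -0.85 in control rats 1 to 3. All HDM rats lay above the control rats, and HDM rats 1 and 3 stood highest. The log2 fold change was 0.69 (SE 0.20, adjusted p = 0.230, exact permutation p = 0.0357). Within the second row of the slide, where HDM rat 5 lay beside the 3 control rats, the difference of Trem1 was 0.37, the largest loss among the 5 genes with a difference above 0.6 in size. In the same row Fpr1 differed by -0.66, C3ar1 by 0.84, C5ar1 by 0.49 and Tyrobp by 0.55. Trem3, a myeloid TREM that also pairs with TYROBP, had a log2 fold change of 0.60 in the lung (SE 0.16, adjusted p = 0.177), again with all HDM rats above all control rats.

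Trem2 differed by less. Its log2 signal in the lung, a mean over 10 spots per array, was 1.5, 1.51, 1.69, 1.17 and 1.17 in HDM rats 1 to 5 and 1.16, 1.27 and 1.35 in control rats 1 to 3. HDM rats 1 to 3 lay above the control rats, and HDM rats 4 and 5 lay at their lower end. Its log2 fold change was 0.15 with a 95% interval from -0.20 to 0.49 (adjusted p = 0.895). Treml1, the platelet member of the cluster, had a log2 fold change of 0.12 (adjusted p = 0.947).

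Tyrobp, the adaptor that TREM1, TREM2 and TREM3 share, was also read from 10 spots per array. Its log2 signal in the lung was 6.35, 5.99, 6.52, 5.95 and 6.10 in HDM rats 1 to 5 and 5.68, 5.63 and 5.34 in control rats 1 to 3. No HDM rat reached down to the control range. HDM rats exceeded control rats by a log2 fold change of 0.63 (SE 0.17, adjusted p = 0.179, exact permutation p = 0.0179). It was the only gene of the 7 called after quantile normalization (adjusted p = 0.0272). Hcst (DAP10), the adaptor gene next to Tyrobp on chromosome 1, had a log2 fold change of 0.36 (SE 0.13, adjusted p = 0.386), with separated groups except on the scale of Gapdh and Hprt1.

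The median log2 fold change of the 7 genes was 0.63 in the lung, where the median over all probes was 0.00. In adipose tissue the median of the 7 was 0.50, where that over all probes was -0.15. Over the brightest probes of all named genes, the more alike set, the medians were -0.01 in the lung and -0.05 in adipose tissue.

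**Figure D2:**
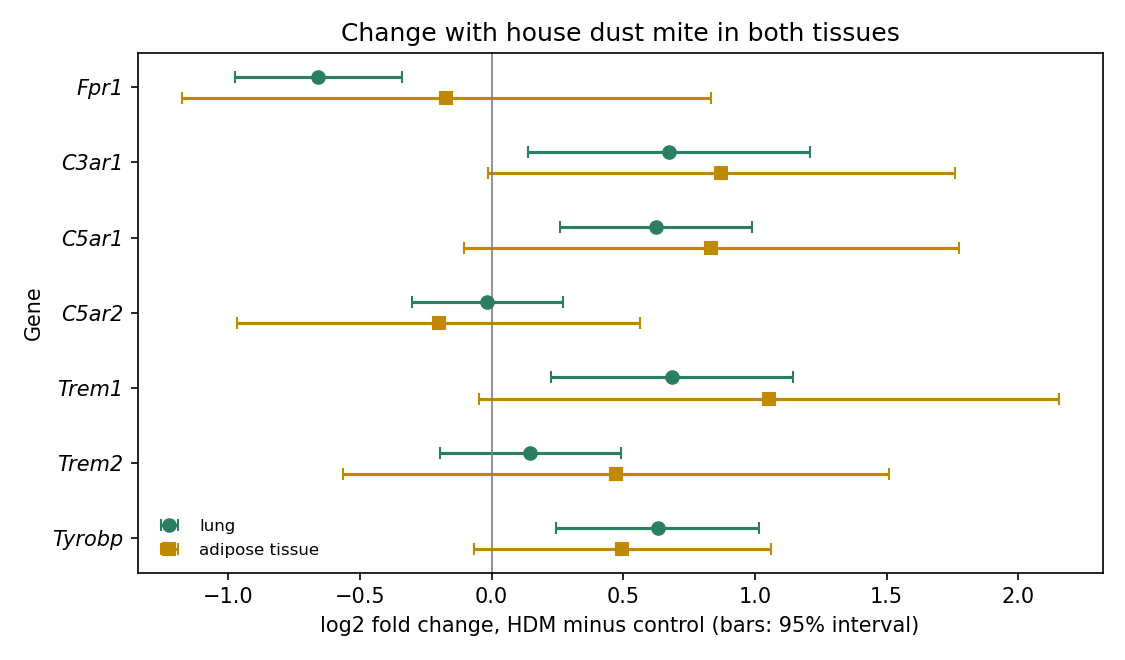
Log2 fold change (x axis, HDM minus control) of each gene, by its brightest probe, in lung (circles) and adipose tissue (squares). Bars are 95% intervals from limma, not adjusted for the number of probes. In the lung the intervals of Fpr1, C3ar1, C5ar1, Trem1 and Tyrobp do not reach 0. All adipose intervals include 0 and all are wider than those in the lung.

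In adipose tissue the mean levels of C3ar1, C5ar1, Trem1, Trem2 and Tyrobp were higher in HDM rats, but every pair of groups overlapped. The log2 fold change was 0.87 for C3ar1 (SE 0.38, adjusted p = 0.513), 0.83 for C5ar1 (SE 0.41, adjusted p = 0.554) and 1.05 for Trem1 (SE 0.48, adjusted p = 0.523). It was 0.50 for Tyrobp (SE 0.24, adjusted p = 0.559) and 0.47 for Trem2 (SE 0.45, adjusted p = 0.808). These are fold differences of up to 2.08, for Trem1, with larger errors than in the lung. Fpr1 and C5ar2 had values of -0.17 (SE 0.44) and -0.20 (SE 0.33).

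The rats that widened these errors were the same for several genes. C5ar1 in adipose tissue was 0.78, 1.66, 2.15, 2.24 and 2.19 in HDM rats 1 to 5 and 0.30, 1.42 and 1.19 in control rats 1 to 3. C3ar1 was -0.75, -0.26, 0.41, 0.60 and 0.59 against -1.25, -0.23 and -0.78, and Trem2 was 2.64, 3.68, 4.11, 4.29 and 4.22 against 2.56, 3.86 and 3.53. HDM rat 1 was the lowest HDM rat and control rat 1 the lowest control rat for each of C3ar1, C5ar1, Trem1, Trem2 and Tyrobp. These are the arrays with the epididymis and testis genes. Macrophage and monocyte markers were also at their lowest there, with a summed signal of 179 times the 75th percentile in HDM rat 1 and 144 in control rat 1, against 214 to 347 in the other 6 rats. Without both rats the log2 fold changes were 0.84 for C3ar1, 0.76 for C5ar1, 0.81 for Trem1, 0.38 for Trem2 and 0.52 for Tyrobp, so that the direction stayed and no gene was called. With HDM rat 2 left out as well they were 1.04, 0.89, 1.08, 0.51 and 0.63. Within the second row of the slide, HDM rat 5 differed from the control rats by 1.34 for C3ar1, 1.22 for C5ar1, 1.55 for Trem1, 0.91 for Trem2 and 0.59 for Tyrobp.

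**Figure D3:**
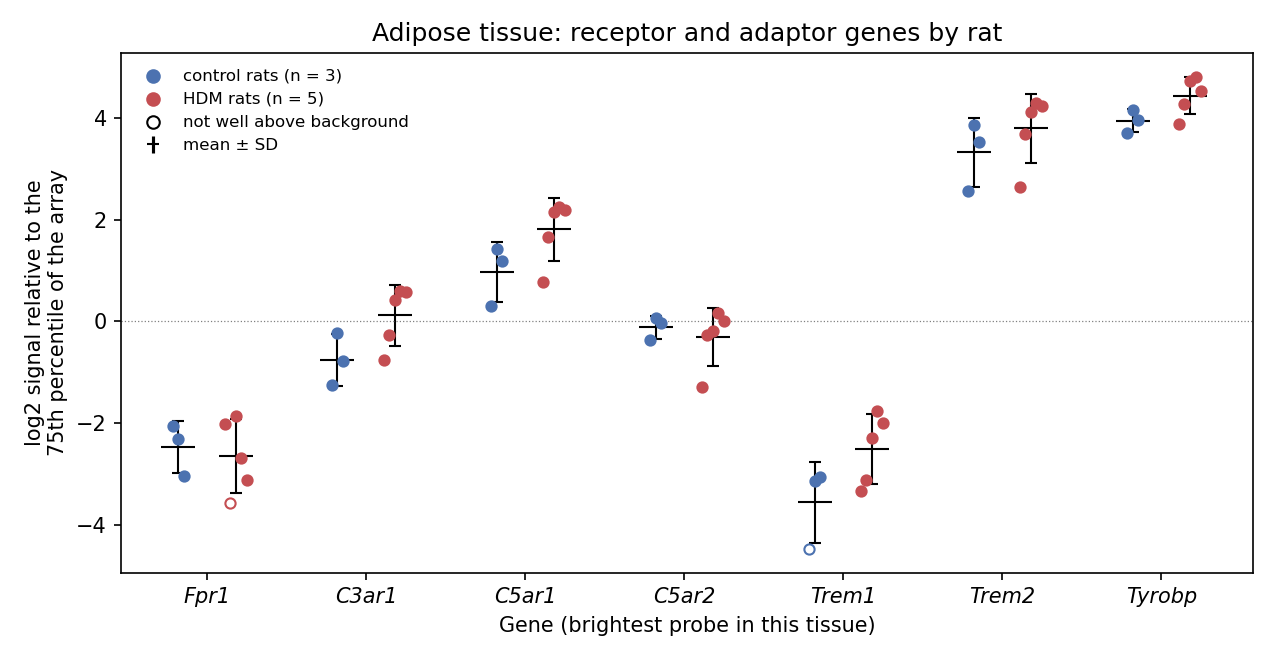
Level of each gene in adipose tissue (y axis, log2 signal relative to the 75th percentile of the array) in 3 control rats (blue) and 5 HDM rats (red), with mean ± SD. Open points were not well above background. One HDM rat and 1 control rat sit low for C3ar1, C5ar1, Trem1 and Trem2, and the groups overlap for all 7 genes.

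Trem1 in adipose tissue lay close to background. Its log2 signal was -3.34, -3.10, -2.29, -1.77 and -2.0 in HDM rats 1 to 5, all well above background. It was -4.46, -3.14 and -3.05 in control rats 1 to 3, of which rat 1 was not well above background. HDM rats 1 and 2 fell into the control range. Fpr1 was likewise dim there, and was not well above background in HDM rat 2. Tyrobp was 3.88, 4.26, 4.71, 4.79 and 4.53 in the HDM rats against 3.71, 4.16 and 3.95, and HDM rat 1 alone lay within the control range.

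Whether a change with HDM differed between the tissues was tested on the difference between the lung and adipose arrays of each rat. None of the 7 genes passed (adjusted p 0.824 to 0.909 in limma), where 0.00219% of all probes did. At an unadjusted p below 0.05 there were 0 of 7 genes and 3531 of 45598 probes. The lung change minus the adipose change was -0.49 (SE 0.50) for Fpr1, -0.37 (SE 0.57) for Trem1 and 0.13 (SE 0.32) for Tyrobp. The separation seen in lung and the overlap seen in adipose tissue are therefore not shown to be different effects.

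The 7 genes differed in which tissue carried more of their mRNA, within each rat and with the same probe, the brightest of each gene. Trem1 was higher in the lung of all 8 rats, by a median of 2.42 log2 units (1.39 to 3.71). Fpr1 was higher in the lung by a median of 2.24 (1.05 to 3.16) and Tyrobp by 1.65 (1.15 to 2.47), again in 8 of 8 rats. C5ar2 was higher by 0.65 (0.20 to 1.73) in 8 of 8 rats with its brighter probe. Its dim probe had no common order, at -3.70 in lung and -3.47 in adipose tissue of HDM rat 1 but -3.27 and -4.02 in HDM rat 3. Trem2 ran the other way and was higher in adipose tissue in all 8 rats, with a lung minus adipose difference of -2.30 (-3.11 to -1.14).

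C3ar1 was also lower in the lung in 8 of 8 rats with its brighter probe, by a median difference of -1.25 (-1.98 to -0.13). However, the lung was higher in 1 of 8 rats with arrays scaled to their median and in 2 of 7 with Gapdh and Hprt1 as the scale. With the dimmer probe of C3ar1 the lung was higher in HDM rat 1 (-2.42 against -2.54) and control rat 1 (-2.86 against -3.26), and lower in the other rats. C5ar1 showed no common order: the lung was higher in 3 of 8 rats, and in 5 of 7 on the scale of Gapdh and Hprt1. By brightest probe, the other 5 genes kept their order in every rat under these scalings and under quantile normalization over all 16 arrays. The adaptor Tyrobp followed Trem1 and not Trem2 in its tissue order. The tissues were scanned on separate slides, so that slide and tissue cannot be told apart in these levels.

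**Figure D4:**
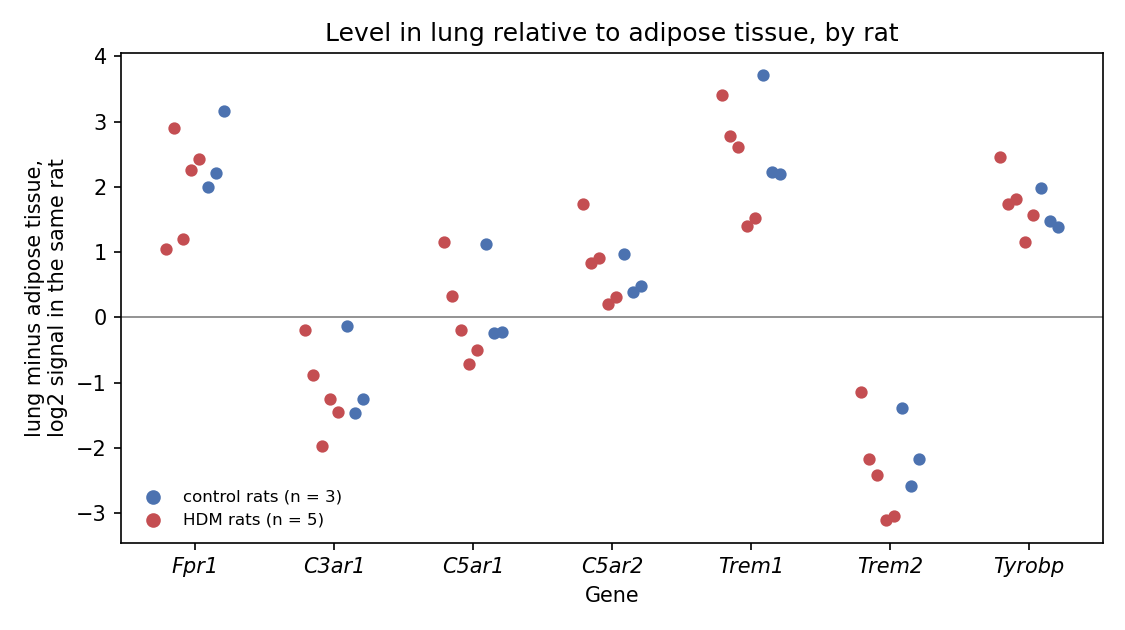
Level in lung minus level in adipose tissue of the same rat (y axis, log2 units, brightest probe of each gene), with 1 point per rat, HDM rats in red and control rats in blue. Points of Fpr1, C5ar2, Trem1 and Tyrobp lie above 0, those of C3ar1 and Trem2 lie below 0, and those of C5ar1 lie on both sides.

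Among the ligands of these receptors and their precursors, 1 of 8 measured genes rose in the lung and none fell, where 0.855% of all probes were called. It was Pglyrp1, which encodes a peptidoglycan recognition protein that binds TREM1, with a log2 fold change of 2.40 (SE 0.19, adjusted p = 0.00170). Camp, the source of the cathelicidin peptide that acts on formyl peptide receptors, had a value of 1.26 with separated groups (SE 0.30, adjusted p = 0.134). C3, from which C3a is cut, had a value of 0.22 (SE 0.37, adjusted p = 0.964). Apoe, a ligand of TREM2, was at -0.10 (SE 0.10), and Anxa1, whose peptides bind formyl peptide receptors, at 0.12 (SE 0.14).

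Of 14 measured complement activation genes, 2 rose in the lung and none fell, against 0.855% of all probes called. Fcnb, a ficolin that starts the lectin pathway, rose with a log2 fold change of 1.78 (SE 0.21, adjusted p = 0.0107). Cfp, which encodes properdin and stabilises the alternative pathway convertase, rose by 0.85 log2 units (SE 0.14, adjusted p = 0.0402). None of the 10 genes that limit or degrade anaphylatoxins was called. Of these, Cpn1, the catalytic subunit of the carboxypeptidase that trims C3a and C5a, was lower in the lungs of all HDM rats (log2 fold change -0.42, adjusted p = 0.348).

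Among pathway genes downstream of the receptors, and among other receptors linked to TYROBP, the picture was similar. Each list held 1 called gene, against 0.855% of all probes. With so few genes per list, 1 call says little about the list as a whole. Of 17 measured genes of the chemoattractant receptor pathway, Ncf4, a cytosolic subunit of the NADPH oxidase, rose with a log2 fold change of 1.04 (SE 0.14, adjusted p = 0.0226). Of 14 measured genes of the ITAM pathway, Fgr, a kinase of the Src family, rose by 0.99 log2 units (SE 0.11, adjusted p = 0.00942). Syk, the kinase that TYROBP recruits, had a value of 0.44 (SE 0.15, adjusted p = 0.334). Of 6 measured genes of other receptors linked to TYROBP, Itgam, the alpha chain of complement receptor 3, rose by 1.03 log2 units (SE 0.15, adjusted p = 0.0285). The median log2 fold changes of the 3 lists were 0.31, 0.26 and 0.35. None of the genes on these lists was called in adipose tissue.

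**Figure D5:**
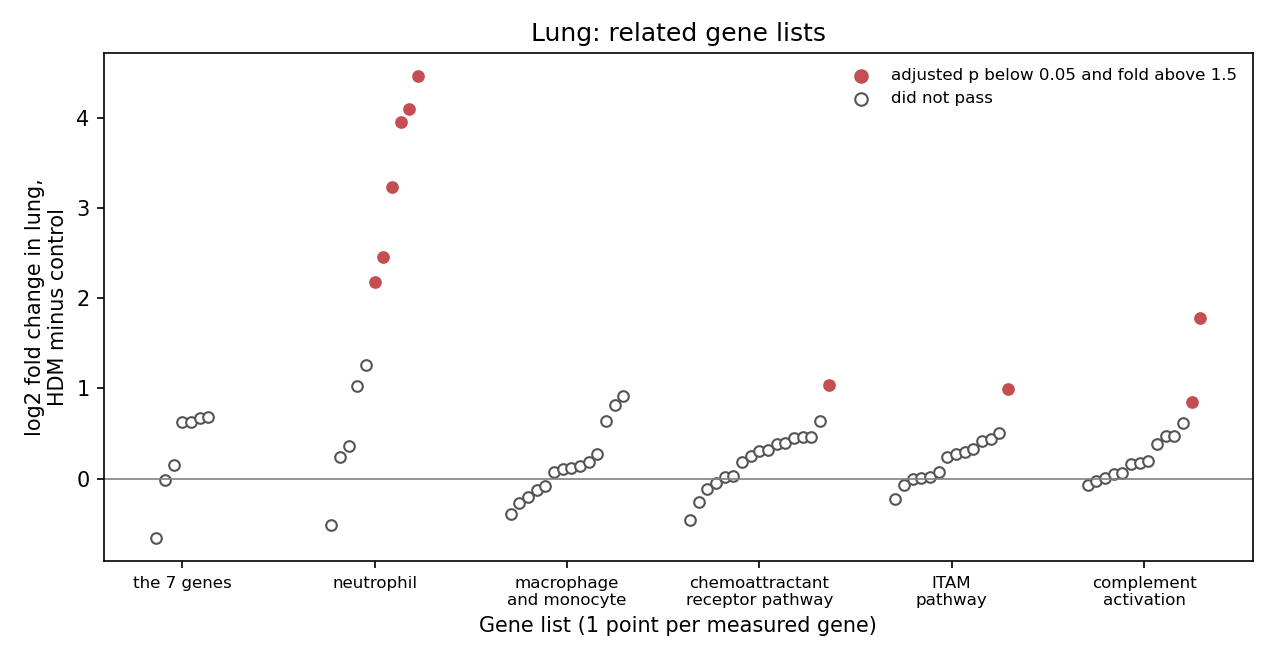
Log2 fold change in the lung (y axis, HDM minus control) of the 7 genes and of 5 related gene lists, with 1 point per measured gene. Filled points passed the test. The neutrophil list holds 6 filled points above 2, the 7 genes hold none, and no filled point lies below 0.

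Of 11 measured neutrophil markers 6 rose in the lung, against 0.855% of all probes called. Among them were S100a8 with a log2 fold change of 4.46 (SE 0.29), S100a9 with 4.09 (SE 0.24), Mmp8 with 3.95 (SE 0.25) and Mmp9 with 3.23 (SE 0.21). Cxcr2 and Csf3r, receptors that recruit and sustain neutrophils, rose by 2.46 and 2.18 log2 units. The summed signal of the list was 124 to 271 times the 75th percentile in HDM rats and 8.34 to 10.6 in control rats. The granule protease gene Elane and the lactoferrin gene Ltf stayed near background on all 8 lung arrays, none of which read them as well above it. Fpr1, which is known as a neutrophil receptor, was lower in the same lungs.

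Macrophage and monocyte markers did not separate the groups as a sum, which was 535 to 726 in HDM rats and 577 to 648 in control rats. Lyz2, the brightest of the 14, weighs most in that sum (mean log2 signal 8.92 in HDM and 9.01 in control rats). The mean log2 signal over the 14 markers, which weighs them alike, was higher in all HDM rats, at 1.38 to 1.52 against 1.25 to 1.35. None of the 14 was called. The monocyte receptor gene Ccr2 had a value of 0.91 (SE 0.19, adjusted p = 0.0931), Fcgr1a one of 0.82 (SE 0.19, adjusted p = 0.118) and Adgre1 one of 0.64 (SE 0.19, adjusted p = 0.230), each higher in all HDM rats. Adgre1 did not separate the groups after median scaling, quantile normalization or scaling to Gapdh and Hprt1. Of the 14 markers 9 had a positive and 5 a negative difference, with Marco at -0.40 and Cd163 at -0.27, and the median of the list was 0.11. No marker of eosinophils (4 measured), mast cells (6), T and B cells (6), lung epithelium (6), adipocytes (6) or epididymis and testis (8) was called in either tissue. None of the neutrophil or macrophage markers was called in adipose tissue on the scale of the 75th percentile. Eosinophil markers were higher in the lungs of all HDM rats as a sum, at 0.815 to 2.37 times the 75th percentile against 0.273 to 0.481. Of these, Prg2, a granule protein gene, had a value of 1.75 with separated groups (SE 0.44, adjusted p = 0.158), and the eotaxin receptor gene Ccr3 one of 1.56 (SE 0.57, adjusted p = 0.375). The B cell receptor gene Cd79b and the T cell gene Cd8a stood higher in all HDM rats, at 0.56 and 0.54 (adjusted p = 0.0715 and 0.102). The lung epithelial genes Cldn18, Ager and Sftpb stood lower in all HDM rats, at -0.35, -0.21 and -0.19 (adjusted p = 0.229, 0.517 and 0.579), of which Cldn18 alone separated the groups after quantile normalization. Among mast cell genes Fcer1a was at 0.62 (SE 0.26), among adipocyte genes Adipoq was at 0.87 (SE 1.22), and among epididymis and testis genes Adam7 was at 0.39 (SE 0.14). The part of these cell types in the lung differences of the 7 genes was not tested.

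The genes closest to each of the 7 in pattern were found by the root-mean-square difference of centred log2 values over the 8 arrays of a tissue, among 11918 genes well above background on all lung arrays. For C3ar1 they were Adgre1 (0.11), Cd180 (0.12) and Ngfr (0.16). For C5ar1 they were Cdkn2d (0.05), Coro1a (0.07) and Ptgs2os (0.10), and for Trem1 they were Tmem156, Arhgap15 and Cklf (0.08 each). Those of Tyrobp were Gmfg (0.05), Gngt2 (0.06) and Ptpn18 (0.07). Those of Fpr1 were Lurap1l (0.08), Pdlim2 (0.08) and Hgfac (0.09). Among the nearest lung genes of all 7, Adgre1 beside C3ar1 was the only gene on the neutrophil or macrophage lists.

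The nearest patterns of C5ar2, at Rbmxl1, Apol3l1 and Sri (0.04 each), and of Trem2, at Snx7 (0.03), Pcgf1 (0.05) and Tmco1 (0.05), belonged to genes that also differed little between the groups. In adipose tissue, among 9946 genes, C3ar1 ran closest to Clec4a1 (0.11), Hmox1 (0.12) and Fcgr1a (0.13). C5ar1 ran closest to Asgr2 (0.07), Ptafr (0.08) and C1qa (0.08), and Trem2 to P2ry13 (0.05), Slc43a2 (0.10) and Pf4 (0.10). Tyrobp ran closest to Cd53 (0.08), Runx1t1 (0.09) and A3galt2 (0.10), and C5ar2 to Plat (0.09), Bmp1 (0.09) and Spon1 (0.11). Fpr1 and Trem1 were not above background on all adipose arrays and were left out of this search.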

How the data were processed

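For each array the authors deposited linear spot intensities, from which Agilent Feature Extraction 12.0.3.1 had subtracted the background. They also deposited a GeneSpring table of log2 values. Of these, 39 cells held dates and were treated as missing, and 99.91% of the others lay within 0.1 of the values computed here once each probe was centred on its median within a tissue. All sample columns were mapped. Spots of 1 probe were averaged after removal of control and outlier spots, and the 75th percentile of each array was subtracted on the log2 scale. Processing was done by probe on 45598 probes, of which 21229 had a gene symbol through RefSeq (GRCr8) and the array design (rn4). The brightest probe stands for a gene in each tissue. HDM and control rats were compared per tissue with limma 3.58.1 (lmFit, eBayes) in R 4.3.3, with Benjamini-Hochberg adjustment over all probes, and on lung minus adipose differences of the same rat. Rats were paired across tissues by the animal number in the labels, and deviations of both tissues of a rat correlated at -0.10 to 0.11. The code was tested on simulated data. The packages data.table (1.17.8) and jsonlite 2.0.0, and Python 3.11.15 with matplotlib 3.10.9, were also used.

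The 7 genes and the lists were chosen with earlier results of these data known. All 7 were named with each probe, together with their relatives. From the other lists, called genes were named, or up to 3 with the largest change among those above background in a group where a list had none. For likeness, the 3 nearest genes were named. Camp, C3, Apoe, Anxa1, Syk, Prtn3, Marco, Cd163, Elane, Ltf and the tissue markers are exceptions to this rule, picked with their values known. The number of arrays limits the precision. Alternatives included other scalings, background corrections, tests, blocks and left-out rats.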

Additional observations from a re-analysis of the deposited data

How the results depend on the processing

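The count of 0 of 7 genes called in the lung became 4 with adjustment over probes past 1.5-fold, 3 with that adjustment and the methods' t-test, 3 with normexp and quantile normalization, 1 with quantile normalization, 1 without dim probes, 1 with array weights and 5 at an unadjusted p, the last chosen after seeing the data. The cause was not tested. The count stayed at 0 in adipose tissue and for the tissue difference under all alternatives run, and in the lung under the others. The lung median of 0.63 became 0.45 with normexp and quantile normalization and 0.37 with the slide row as a block, which leaves HDM rat 5 against the controls. Leaving out 1 rat at a time gave 0.51 to 0.70 in the lung and 0.38 to 0.76 in adipose tissue, with 0 genes called throughout. Other scalings moved the adipose median of all probes between -0.21 and 0.14, and the 7 genes lay 0.39 to 0.71 above it.

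Replicate numbers of HDM and control rats mark different animals, and their deviations correlated at -0.08 to 0.05 in lung and 0.10 to 0.59 in adipose tissue. With the replicate number as a block the medians were 0.49 and 0.35, and 0 genes were called in either tissue or for the tissue difference.

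Of 357 recomputed fold changes of single genes 344 kept their side of the threshold, 13 passed it and none reversed as a call. In the lung Fpr1 was below 0 and C3ar1, C5ar1, Trem1 and Tyrobp were above 0 in all 24 alternatives. C5ar2 was above 0 in 6 and Trem2 below 0 in 1. In adipose tissue C3ar1, C5ar1, Trem1, Trem2 and Tyrobp were above 0 in all 27. Fpr1 was above 0 there in 7 and C5ar2 in 3. These counts include alternatives that changed only the test, the threshold or the probes tested, which left each fold change as it was. Leaving out HDM rat 2 entered the adipose counts in duplicate. On the scale of Gapdh and Hprt1 the adipose array of HDM rat 2 was dropped, because its Hprt1 spot was an outlier. Without control rat 1, adipose values fell to 0.09 for Trem2 and 0.60 for Trem1. Low signal limits Trem1 and Fpr1 in adipose tissue.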

Other observations

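Some neutrophil genes were also high in the adipose tissue of HDM rats, without passing the test on the scale of the 75th percentile. After median scaling 1 of the markers was called there, as was 1 after quantile normalization. Of 11 measured markers 6 had a positive difference there, and the others, such as Ltf at -1.44 (SE 0.71) and Prtn3 at -0.99 (SE 2.01), a negative one. Most were dim: 3 of the 11 were well above background on every array of at least 1 group, and Mmp8, Elane and Ngp on no array. Ltf was so in 1 HDM rat and 2 control rats, and Prtn3 in 1 rat of each group. S100a9 had a log2 fold change of 3.83 (SE 0.33, adjusted p = 0.0853 in limma) and S100a8 one of 4.66 (SE 0.55, adjusted p = 0.154), with every HDM rat above every control rat for both. S100a8 was well above background in 5 of 5 HDM rats and 2 of 3 control rats. Csf3r had a value of 2.16 (SE 0.86, adjusted p = 0.476), and no control rat had it well above background. The summed signal of the neutrophil list in adipose tissue was 3.63 to 9.14 times the 75th percentile in HDM rats and 0.941 to 2.08 in control rats.

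Cpn1, for the enzyme subunit that trims anaphylatoxins, was lower in all HDM rats in adipose tissue as well, but not after quantile normalization, with or without normexp. It was not well above background in any of the 5 HDM rats and was so in 2 of 3 control rats, with an adjusted p of 0.327. Cd14, the lipopolysaccharide co-receptor of monocytes, was the macrophage marker with the largest adipose difference, at 1.21 (SE 0.44, adjusted p = 0.440), with separated groups. These overlapped after median scaling.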
